A study of Mus musculus with 6 samples.

Results

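The enzymes that make serine and glycine and pass their carbon to folate were followed through 9 genes: Phgdh, Psat1, Psph, Shmt1, Shmt2, Gldc, Mthfd1, Mthfd2 and Tyms. They were chosen as a list of pathway enzymes, with earlier results of these data known, so counts set beside shares of all genes are a description. Each probe set whose only gene symbol in the platform annotation was one of the 9 was used. This gave 25 of the 45037 probe sets tested, and 9 of the 18193 genes that have a probe set of their own. RNA came from E14TG2a cells, a mouse ES cell line, on Affymetrix mouse arrays. The 3 undifferentiated samples had been cultured with leukaemia inhibitory factor (LIF) at 1000 units per ml and sorted by FACS as 5T4-negative, 5T4 being a surface glycoprotein of differentiating cells. The 3 differentiating samples had spent 3 days without LIF before cells with 5T4 on their surface were sorted, so the effects of LIF and of the sort cannot be told apart. All were grown on gelatin in a medium that held non-essential amino acids and nucleosides, thymidine among them, with fetal calf serum or serum replacement, and live cells were gated in the sort by light scatter. Whether the replicates were separate cultures is not given, so p-values measure the spread between these samples, which may be technical.

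Serine is made from a glycolytic intermediate in 3 steps, by the dehydrogenase PHGDH, the aminotransferase PSAT1 and the phosphatase PSPH. Serine hydroxymethyltransferase then splits serine into glycine and a methylene group that is carried by tetrahydrofolate, with SHMT1 in the cytosol and SHMT2 in mitochondria, while GLDC, a subunit of the mitochondrial glycine cleavage system, releases the same kind of unit from glycine. MTHFD2 in mitochondria and MTHFD1 in the cytosol oxidise or reduce these folate-bound units, and thymidylate synthase (TYMS) spends them on the thymine nucleotide of DNA. Mouse ES cells are known for a high demand for such units during their rapid division.

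The promoter windows show one short sequence that most members share. RefSeq promoters (build GRCm38.p6, from 250 bases before to 50 bases after an annotated start) were at hand for all 9 genes, 10 windows in all because Psat1 has a second start. The letters CCAAT, the core of the box bound by the factor NF-Y, were found on either strand in 7 of the 10 windows, those of Phgdh, Psat1, Psph, Shmt1, Gldc, Mthfd1 and Mthfd2. Of all 32851 promoter windows of this length, 37.4% held these letters. The motif was chosen with the sequences in view, so this contrast is a description and no test. The window of the first Psat1 start and that of Mthfd2 held 3 matches each, which 3.37% of all windows reach. The stretches around the matches are printed to show where they lie in the 7 genes that have them, 5′ to 3′ on the strand of the gene, with the matches (CCAAT, or ATTGG where it lies on the other strand) in capitals.
Phgdh, chr3:98339968-98340182, minus strand: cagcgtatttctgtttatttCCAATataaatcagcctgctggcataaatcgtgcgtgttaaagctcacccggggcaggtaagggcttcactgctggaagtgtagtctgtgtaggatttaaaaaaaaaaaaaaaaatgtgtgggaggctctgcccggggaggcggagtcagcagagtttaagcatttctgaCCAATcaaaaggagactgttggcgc
Psat1, chr19:15925012-15925115, minus strand: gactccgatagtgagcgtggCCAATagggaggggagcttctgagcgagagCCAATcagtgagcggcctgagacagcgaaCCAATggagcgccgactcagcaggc
Psph, chr5:129787277-129787351, minus strand: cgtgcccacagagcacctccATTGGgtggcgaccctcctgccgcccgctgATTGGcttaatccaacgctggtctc
Shmt1, chr11:60811288-60811332, minus strand: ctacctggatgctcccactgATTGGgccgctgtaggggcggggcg
Gldc, chr19:30175483-30175527, minus strand: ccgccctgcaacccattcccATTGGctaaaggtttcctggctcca
Mthfd1, chr12:76255143-76255187, plus strand: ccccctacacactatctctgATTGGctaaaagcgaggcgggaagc
Mthfd2, chr6:83317602-83317720, minus strand: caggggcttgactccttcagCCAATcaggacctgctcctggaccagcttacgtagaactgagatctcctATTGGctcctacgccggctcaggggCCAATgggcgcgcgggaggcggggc

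In each of the 7 windows at least 1 match began within 70 bases of the annotated start, from 69 bases before it in Mthfd1 to 6 bases before it in Psat1. Shmt2, Tyms and the second start of Psat1 had none in their windows. The amino acid response element bound by ATF4, a known activator of serine synthesis genes, was searched as TGATGNAAN on both strands and was in 0 of the 10 windows, against 3.95% of all windows. E2F sites, searched as TTTGGCGC, TTTCCCGC, TTTCGCGC and TTTGCCGC on both strands, were in 0 of the 10 against 2.26%, and the palindromic E-box CACGTG was in that of Tyms only, 61 bases before its start, against 7.15%. The letters of these motifs do not overlap each other in any member window. Where so few of all windows hold a motif, a count of 0 in 10 does not show that the members lack it. A match is a description of the sequence and not a measured binding site.

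**Figure D1:**
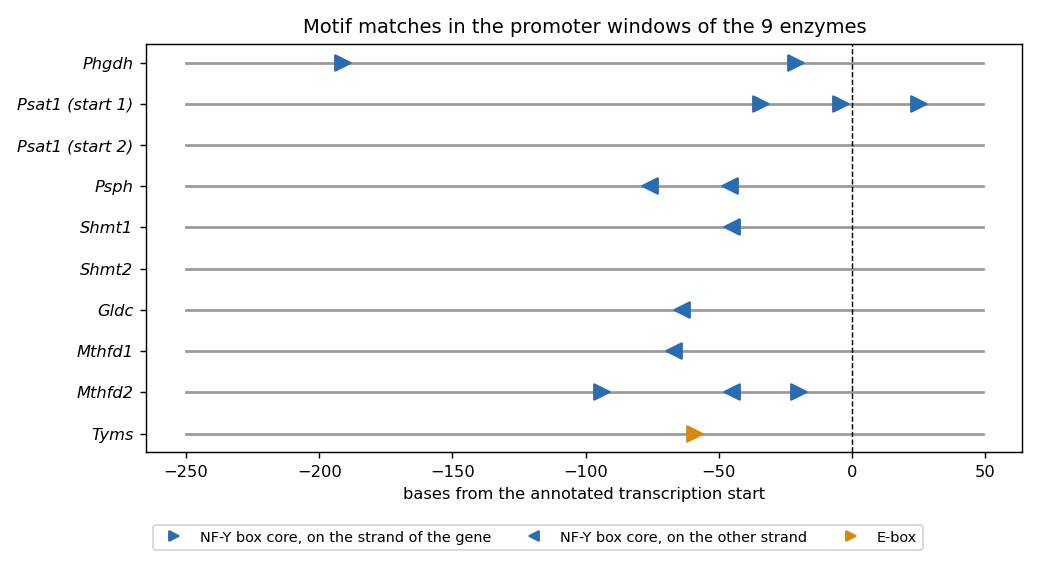
Position of CCAAT matches (blue, pointing along the strand they lie on, named NF-Y box core) and of the E-box match (orange) in the promoter windows of the 9 genes, in bases from the annotated start (dashed line, horizontal axis). Of the 10 windows 7 hold CCAAT, and Psat1 (first start) and Mthfd2 hold 3 matches each.

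Marker genes went the way the labels give. Of 7 marker genes of undifferentiated ES cells all had a negative log2 fold change (differentiating minus undifferentiated, median -2.64) and 4 were lower at an adjusted p under 0.1 from limma, and of 5 primed epiblast genes 2 were higher. The summed level of the ES cell list (log2 of the sum of linear values) was 13.02 to 13.38 in differentiating and 14.22 to 14.69 in undifferentiated arrays, and that of the primed list 12.81 to 13.40 and 11.68 to 12.32. Of 5 endoderm, 7 fibroblast, 5 blood and 6 dissociation stress genes none passed at its brightest probe set, but the endoderm gene Dab2 passed as higher at 2 of its 4 probe sets and had a log2 fold change of 1.96 at the brightest, with groups that do not overlap (adjusted p = 0.142 from limma). Of the 7 fibroblast genes, 3 had every differentiating array above the undifferentiated ones, where 10.7% of all genes did. These were Dcn (0.66), Pdgfra (0.53) and Lum (0.22), and the last 2 were dim (percentiles 35.2 and 13.1 of all probe sets). Col1a1 (0.18), Col3a1 (0.20), Thy1 (-0.11) and Col1a2 (1.38) had overlapping groups, and Col1a2 reached 9.34 in differentiating replicate 1. Ptprc, the pan-leukocyte gene, was at 3.66 or less on the log2 scale on every array. Their summed levels in differentiating and undifferentiated arrays were 8.50 to 9.03 and 7.40 to 8.30 for endoderm, 8.94 to 10.08 and 8.45 to 9.51 for fibroblast, 7.22 to 7.40 and 7.40 to 7.59 for blood, and 10.82 to 11.04 and 10.33 to 11.23 for dissociation stress. Over these lists, undifferentiated replicate 2 was nearer to the differentiating arrays at some genes, such as Jun (8.56, against 6.33 and 6.53 in replicates 1 and 3) and Col1a2 (8.44, against 5.55 and 6.51), singled out after their values were seen. Their part in the results was not tested. In bulk RNA, fewer cells with a transcript and less transcript per cell cannot be told apart.

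None of the 9 enzymes passed the test in either direction, and most of their values were slightly below those of undifferentiated cells. Of the 25 probe sets 0 passed as lower and 0 as higher, against 1.03% and 0.573% of all probe sets. At the probe set of highest mean, 8 of the 9 genes had a negative log2 fold change (46.4% of all genes did), as did 20 of the 25 probe sets (44.0% of all), the genes having a median of -0.29 against 0.02 for all genes. All members but Tyms were bright there, at percentile 90.6 or above, whereas all genes include dim ones. With dim probe sets left out, the median of all probe sets was -0.0081. Member values ran from -0.61 for Shmt2 to 0.19 for Phgdh. The smallest adjusted p of any member probe set was 0.158 from limma, at Shmt1, whereas 1.45% of all genes passed as lower and 0.797% as higher at an adjusted p under 0.1. At an unadjusted p under 0.05, Psph, Shmt1 and Shmt2 were on the lower side, 3 of 9 genes against 9.60% of all genes, and 0 on the higher side against 7.60%. Over probe sets these counts were 7 lower (7.44% of all) and 1 higher (6.28%) of 25. The groups did not overlap at 7 probe sets with the differentiating arrays below (10.3% of all) and at 2 with them above (10.0%), and at the brightest probe sets of 3 genes with them below (12.8% of all genes) and of 0 with them above (10.7%). The 95% intervals of the 9 brightest probe sets reached no further than 2.21-fold lower, for Shmt2, and 1.50-fold higher, for Phgdh. With limma's array weights, 5 of the 9 genes passed as lower (Psph, Shmt1, Shmt2, Mthfd2 and Tyms), in a fit where 15.9% of all probe sets passed and differentiating replicate 2 had a weight of 5.11 against 0.298 for replicate 1.

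**Figure D2:**
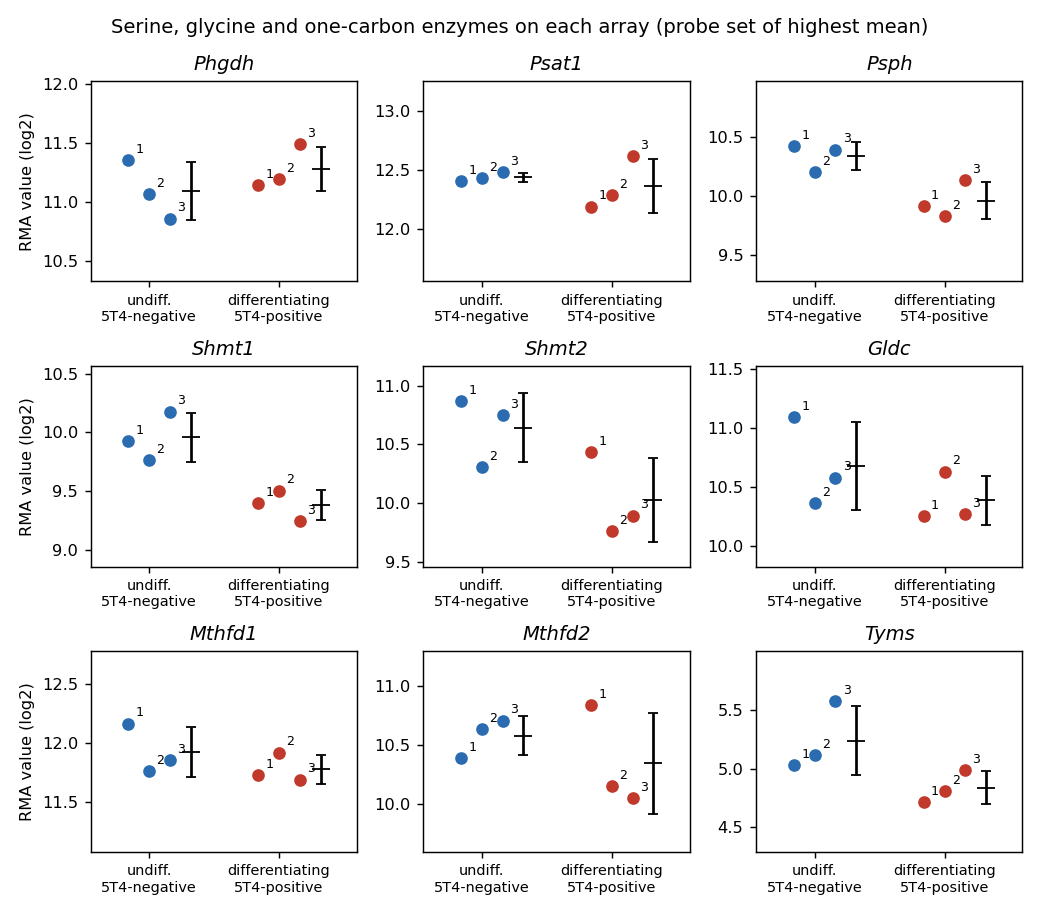
RMA value (log2, vertical axis, the same span in each panel but a separate origin) of each enzyme at its probe set of highest mean on the 6 arrays. Blue points are undifferentiated and red points differentiating cells, each with its replicate number, beside black marks for the group's mean and SD (n = 3). There is no overlap of the groups for Psph, Shmt1 and Tyms, and Phgdh is the one gene with the higher mean in differentiating cells.

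The genes of the 3 steps of serine synthesis did not share a sign. Phgdh, the gene of the first enzyme, had values of 11.35, 11.07 and 10.86 in undifferentiated replicates 1 to 3 and 11.15, 11.20 and 11.50 in differentiating replicates 1 to 3 at its brightest probe set. The groups overlapped, because undifferentiated replicate 1 lay above all differentiating arrays but replicate 3. Its log2 fold change was 0.19 (95% interval -0.21 to 0.58, adjusted p = 0.692 from limma), and ran from 0.069 without undifferentiated replicate 3 to 0.32 without undifferentiated replicate 1, with 0.078 without differentiating replicate 3. At 2 of its other 3 probe sets every differentiating array lay above every undifferentiated array, with log2 fold changes of 0.24 and 0.37 (adjusted p = 0.452 and 0.249 from limma), and the remaining one gave 0.29 (adjusted p = 0.46). All 4 are of a type whose probes can match other transcripts, and 2 more probe sets that the annotation shares between Phgdh and a pseudogene, Gm8096 or Gm6756, had log2 fold changes of 0.13 and 0.23 (adjusted p = 0.841 and 0.479 from limma).

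Psat1, the aminotransferase gene of the next step, had 12.40, 12.43 and 12.48 in undifferentiated and 12.19, 12.29 and 12.62 in differentiating replicates. The undifferentiated arrays were tight and lay within the wider range of the differentiating ones. Its log2 fold change was -0.07 (95% interval -0.41 to 0.26, adjusted p = 0.869 from limma), or -0.29 at a second probe set (adjusted p = 0.588). That second probe set is of a type whose probes can match several transcripts. Psph, which encodes the phosphatase of the last step, had 10.42, 10.20 and 10.39 in undifferentiated and 9.91, 9.83 and 10.13 in differentiating replicates. Every differentiating array lay below every undifferentiated array, and the difference of means was -0.38, or 1.30-fold (95% interval -0.69 to -0.07, adjusted p = 0.268 from limma). With 3 arrays a group, the smallest two-sided p of an exact permutation test is 0.1, so such a separation cannot pass 0.05 in that test.

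The serine hydroxymethyltransferases had the most negative values of the list. Shmt1, the cytosolic isozyme, had 9.93, 9.77 and 10.18 in undifferentiated and 9.40, 9.51 and 9.25 in differentiating replicates at its brightest probe set. The groups were apart, with undifferentiated replicate 2 closest to the differentiating arrays. Its log2 fold change was -0.57 ± 0.15 (standard error), a 1.49-fold difference (95% interval -0.92 to -0.23, adjusted p = 0.158 from limma). The arrays were separated at 3 of its 4 probe sets, with -0.64 and -0.60 at the others of these (adjusted p = 0.183 and 0.266 from limma). The one at -0.60, the dimmest of the 4, is of a type whose probes can match several transcripts. The remaining probe set, at 8.24 to 8.32 in differentiating cells, gave -0.23 (adjusted p = 0.642) and overlapped, because its undifferentiated replicate 2 was at 8.24.

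Shmt2, the mitochondrial isozyme, had 10.87, 10.31 and 10.75 in undifferentiated and 10.43, 9.76 and 9.90 in differentiating replicates at its brightest probe set. Differentiating replicate 1 lay above undifferentiated replicate 2, so the groups overlapped. Between group means the difference was 1.53-fold, -0.61 in log2 units (standard error 0.22, 95% interval -1.14 to -0.08, with an adjusted p of 0.3 by limma). Of its 4 probe sets only the second brightest, also the only one not of the type that can match other transcripts, separated the groups. It had 10.52, 9.85 and 10.26 in undifferentiated and 9.67, 9.36 and 9.46 in differentiating replicates. Its log2 fold change of -0.71, or 1.64-fold, was the most negative of all member probe sets (95% interval -1.17 to -0.26, adjusted p = 0.178 from limma), and the dimmer ones gave -0.44 and -0.48. Without undifferentiated replicate 2, this probe set (-0.89, adjusted p = 0.071 from limma) and 1 dimmer probe set of Shmt1 (-0.83, adjusted p = 0.0544) passed, in a fit where 3.31% of all probe sets did. Neither gene passed at its brightest probe set there.

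Gldc, which encodes the glycine-decarboxylating subunit of the cleavage system, had 11.09, 10.36 and 10.58 in undifferentiated and 10.25, 10.63 and 10.27 in differentiating replicates. Undifferentiated replicate 1 stood above all other arrays, and the rest overlapped. At its single probe set the log2 fold change was -0.29 (95% interval -0.80 to 0.21, adjusted p = 0.614 from limma). Without undifferentiated replicate 1 it was -0.085, without undifferentiated replicate 2 it was -0.45, and with array weights it was -0.0058. Mthfd1, the gene of the cytosolic enzyme with 3 folate-converting activities, had 12.17, 11.76 and 11.86 in undifferentiated and 11.73, 11.92 and 11.69 in differentiating replicates. Here too replicate 1 was the high array of the undifferentiated group, and the others overlapped with the differentiating ones. For Mthfd1 the log2 fold change was -0.15 (95% interval -0.49 to 0.20, adjusted p = 0.718 from limma), and its 2 other probe sets gave -0.23 and -0.13, the latter of a type that can match other transcripts. Without undifferentiated replicate 1 these 3 values were -0.028, -0.089 and -0.027, and the first was -0.23 without undifferentiated replicate 2.

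Mthfd2, the mitochondrial folate dehydrogenase gene, had 10.39, 10.64 and 10.71 in undifferentiated and 10.84, 10.15 and 10.05 in differentiating replicates. Differentiating replicate 1 had the highest value of all 6 arrays, while replicates 2 and 3 lay below every undifferentiated array. Its log2 fold change was -0.23 (95% interval -0.76 to 0.30, adjusted p = 0.715 from limma), and it was -0.48, -0.13 and -0.083 without differentiating replicates 1, 2 and 3 in turn. At the second probe set it was -0.26 (adjusted p = 0.482), with differentiating replicate 1 at 10.30 and replicates 2 and 3 at 9.99 and 9.91. The differences between replicates of the differentiating group were thus larger than the difference between the group means for this gene.

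Tyms, the gene of thymidylate synthase, was dim at all 4 of its own probe sets, whose means lay between the 18.4th and the 41.8th percentile of all probe sets. At the brightest, values were 5.03, 5.11 and 5.57 in undifferentiated and 4.72, 4.81 and 4.99 in differentiating replicates, which do not overlap. Between the group means the log2 fold change was -0.40 (95% interval -0.81 to 0.01, adjusted p = 0.378 from limma), or -0.23 without undifferentiated replicate 3. The next probe set also separated the groups (-0.54, adjusted p = 0.298), and the 2 dimmest gave -0.10 and 0.04. A low RMA value cannot be told from background here, so these folds can understate a change. A brighter probe set, which the annotation assigns to both Tyms and its pseudogene Tyms-ps, had 10.31, 10.45 and 10.59 in undifferentiated and 10.16, 10.10 and 10.09 in differentiating replicates. The arrays did not overlap there either. Its log2 fold change was -0.33 (95% interval -0.61 to -0.06, adjusted p = 0.278 from limma), and which of the 2 transcripts it measured is not known.

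**Figure D3:**
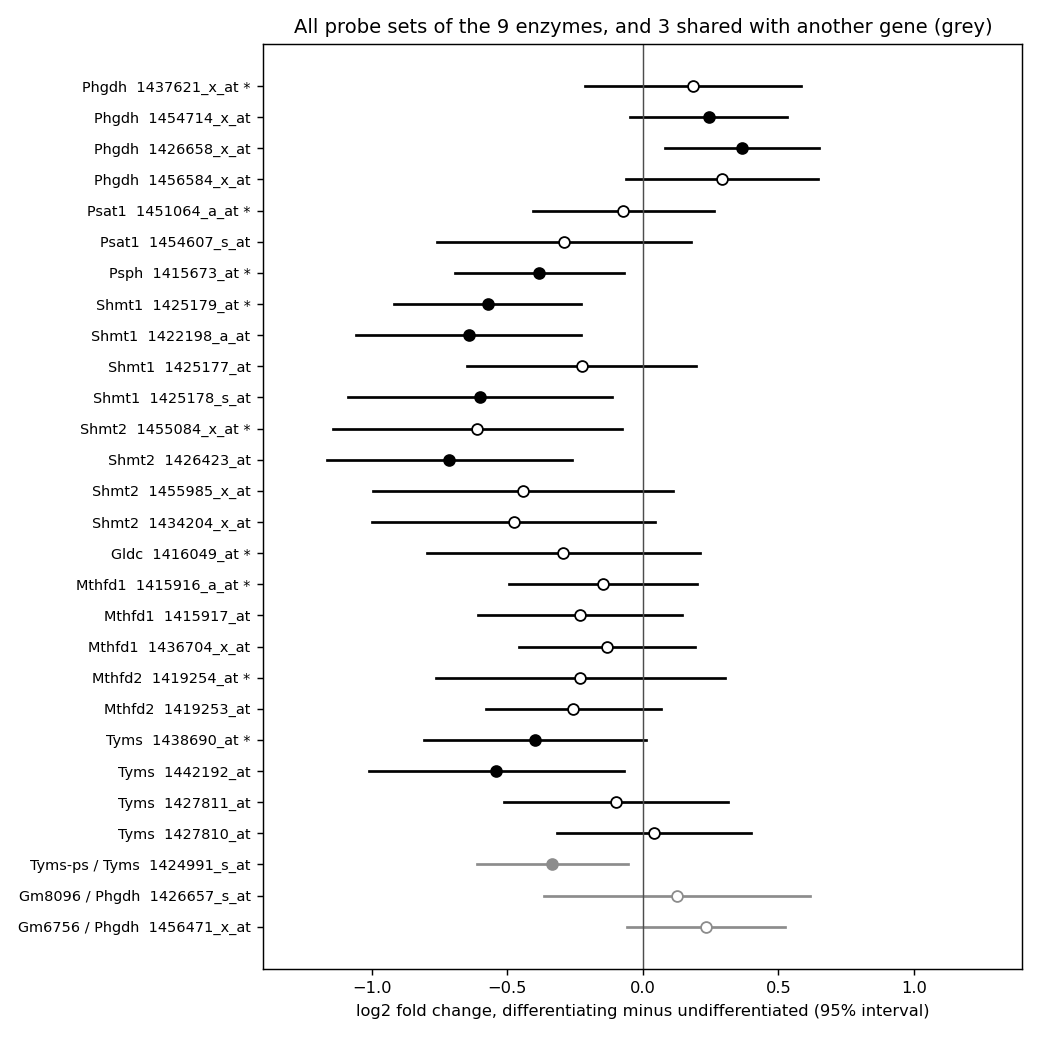
Log2 fold change (points) with its 95% interval from limma (lines) for all 25 probe sets of the 9 enzymes, and in grey for 3 probe sets shared with another gene, ordered by gene and then by brightness; filled points have groups that do not overlap and an asterisk marks the brightest probe set. All 4 Phgdh points lie right of 0, and all Shmt1 and Shmt2 points lie left of it.

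Differences between the compartments lay within the spread of the replicates. The log2 fold change of Shmt2 minus that of Shmt1 was -0.04 (exact permutation test over 3 against 3 arrays, two-sided p = 1), and that of Mthfd2 minus that of Mthfd1 was -0.08 (exact permutation test, two-sided p = 1). The per-array differences within a group had an SD of 0.39 and 0.22 for the SHMT pair in differentiating and undifferentiated cells, and of 0.48 and 0.37 for the MTHFD pair. A test of this size cannot give a p under 0.1, and both signs turned when single arrays were left out (-0.23 to 0.16 for the SHMT pair, without differentiating replicate 1 and 2, and -0.35 to 0.09 for the MTHFD pair, without the same arrays). Across the 9 genes, the median deviation from the gene's mean was -0.21, -0.16 and -0.16 in differentiating replicates 1 to 3 and 0.26, 0.03 and 0.24 in undifferentiated replicates 1 to 3. Undifferentiated replicate 2 was the lowest array of its group for 5 of the 9 genes and the highest for none. Over all probe sets, it was the highest of its group at 26.7%.

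The genes around these enzymes also gave no call at their brightest probe sets. Of all genes, 1.45% passed as lower and 0.797% as higher, so a lack of calls in lists this short says little about them. Of 9 measured neighbours in serine and glycine handling, none passed and 5 had a negative log2 fold change, near the 46.4% of all genes (median -0.21). Slc1a5, the gene of a transporter of neutral amino acids, had 8.09, 7.63 and 7.97 in undifferentiated and 7.42, 7.08 and 6.87 in differentiating replicates. These do not overlap (log2 fold change -0.77, 95% interval -1.22 to -0.32, adjusted p = 0.15 from limma). Cbs, which uses serine to make cystathionine, had -0.43 with overlapping groups (adjusted p = 0.55). Tdh, which makes glycine from threonine in mouse ES cells, had no probe set under its symbol alone, and it was not analysed here, nor were Gcat, Amt, Sds, Mat2a and Amd1.

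Of 11 measured genes of folate transport and the folate cycle, none passed and 10 had a negative log2 fold change, against 46.4% of all genes (median -0.32). The exception was Mthfd2l, a mitochondrial relative of Mthfd2, with 5.83, 6.73 and 6.71 in undifferentiated and 6.82, 7.18 and 7.71 in differentiating replicates. Every differentiating array was above the undifferentiated ones, by little for differentiating replicate 1. Group means differed by 0.81 in log2 units (95% interval 0.07 to 1.55, adjusted p = 0.322 from limma). Slc25a32, the mitochondrial folate carrier gene, had 8.43, 8.08 and 8.11 in undifferentiated and 7.46, 7.82 and 7.73 in differentiating replicates (log2 fold change -0.53, 95% interval -0.90 to -0.17, adjusted p = 0.204), again without overlap. Of 6 genes of the methionine cycle, which takes up methyl groups from folate, none passed and 3 had a negative value (median -0.13), near the 46.4% of all genes. The values of largest size were those of Bhmt (-0.84, adjusted p = 0.194), a betaine-dependent methyltransferase gene that was dim here, and of Mtrr (-0.39, adjusted p = 0.301), which keeps methionine synthase active.

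Of 11 genes of purine synthesis and deoxynucleotide supply, none passed, and the median was -0.09. A negative value was found for 9 of them (46.4% of all genes). The differentiating arrays lay below without overlap for 4 (12.8% of all genes). Ppat, which encodes the first committed enzyme of purine synthesis, had -0.50 (95% interval -0.84 to -0.17, adjusted p = 0.196 from limma), and the ribonucleotide reductase subunit gene Rrm2 had -0.42 (95% interval -0.71 to -0.13, adjusted p = 0.208). Both were separated between the groups. Of 15 genes of replication and S phase, none passed at the brightest probe set, 13 had a negative value (median -0.31) and 7 separated the groups with the differentiating arrays below, where 46.4% of all genes had a negative value and 12.8% such a separation. E2f1, a transcription factor of S phase entry, had 9.37, 7.64 and 8.09 in undifferentiated and 7.72, 7.36 and 7.01 in differentiating replicates (means 8.37 and 7.37, 95% interval of the difference -2.03 to 0.03, adjusted p = 0.379), and Ccne2, a cyclin E gene, had -0.55 (adjusted p = 0.542). Ccne1, singled out after its values were seen, passed as lower at its other probe set only. The median of the 9 enzymes on the same arrays was -0.29.

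ATF4 and its amino acid response targets ranged from -2.02 to 0.52 in log2 fold change. Of 15 genes none passed, 12 had a negative value (46.4% of all genes did) and the median was -0.22. Nupr1, a stress-induced chromatin protein gene, had 10.69, 9.41 and 9.67 in undifferentiated and 8.73, 7.41 and 7.58 in differentiating replicates. The groups did not overlap, and replicate 1 was the high array in both. The log2 fold change was -2.02 (95% interval -3.07 to -0.96, adjusted p = 0.121 from limma). Ddit3, which encodes the stress factor CHOP, had -1.04 (95% interval -1.85 to -0.23, adjusted p = 0.251), and, chosen after their values were seen, Atf4 itself had -0.04 (adjusted p = 0.972) and Asns, the asparagine synthetase gene, -0.10 (adjusted p = 0.778). The Atf4 arrays were spread widely, with 11.21, 12.00 and 12.27 in undifferentiated and 12.05, 11.83 and 11.49 in differentiating replicates. Undifferentiated replicate 1 was thus the lowest of all arrays for Atf4.

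**Figure D4:**
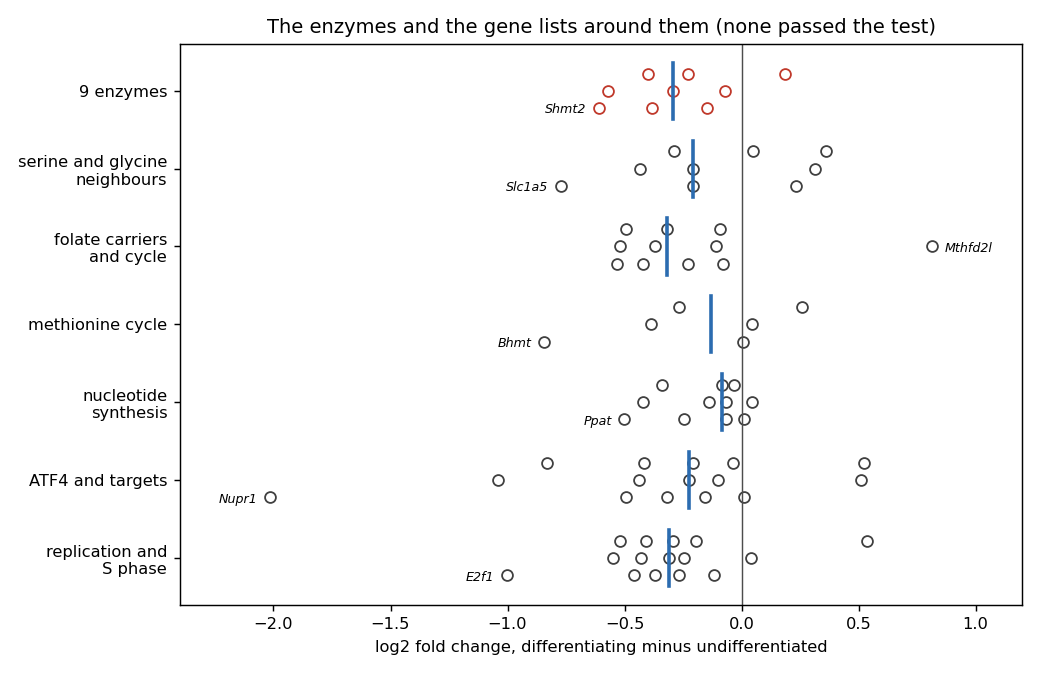
Log2 fold change on the horizontal axis, differentiating minus undifferentiated, of the 9 enzymes (red) and of the measured genes of 6 lists around them (grey), each gene an open point placed by its probe set of highest mean, with blue bars at the medians; the vertical offset only separates points, and the gene of largest size is named in each list. All 7 medians lie left of 0, from -0.32 for folate carriers and cycle to -0.09 for nucleotide synthesis, and no gene passed at an adjusted p under 0.1.

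Shmt1 had the smallest unadjusted p of the 9 genes (0.00578 from limma), and the genes most like it over the 6 arrays were sought among the 11456 other genes of above-median signal. By Pearson's r over 6 arrays, which share the group difference, the closest were Ears2 (0.996), Ticrr (0.994), Pitpnc1 (0.991), Neurod1 (0.991) and Shf (0.99). Ears2 encodes the mitochondrial glutamyl-tRNA synthetase, and Ticrr a regulator of replication initiation. Ears2 had a log2 fold change of -0.29 and Ticrr one of -0.71, and neither passed (adjusted p = 0.312 and 0.132 from limma), while Pitpnc1 (-1.22, adjusted p = 0.095) and Neurod1 (-1.35, adjusted p = 0.0693) did. These values of r are given as a description.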

How the data were processed

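The authors hybridised RNA of 6 sorted ES cell samples to Affymetrix mouse arrays and processed them with RMA in the affy library (version not given in the sources used here), so the deposited values are log2 values per probe set, background corrected and normalized between arrays. Array medians ran from 5.54 to 5.65, the highest being that of differentiating replicate 1. Its values were also less spread, with quartiles of 4.26 and 7.63. On the other arrays the lower quartile was 4.07 to 4.095 and the upper one 7.76 to 7.79. From the 45101 probe sets 64 controls were left out. Each column was tied to its sample through the labels, and genes were named from the platform annotation (34945 probe sets with 1 symbol, 932 with several, 9160 with none). The groups were compared with limma 3.58.1 in R 4.3.3 (lmFit, eBayes, prior degrees of freedom 2.93, no replicate block, Benjamini-Hochberg over 45037 probe sets). A gene passed at an adjusted p under 0.1 and is represented by its probe set of highest mean. The steps were tested on simulated data. Every member was reported, with the 2 list genes of largest change where none passed, and the 5 genes most correlated with the member of smallest p. Members and lists were chosen with earlier results of these data known, and promoter motifs with the sequences in view. Alternatives were a replicate block, a dim filter, controls kept, 2 other scalings, a trended robust variance, array weights, single arrays left out, stricter thresholds, the mean over a gene's probe sets and, added after the data were seen, shared probe sets allowed. The number of arrays limits the precision.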

Additional observations from a re-analysis of the deposited data

How the results depend on the processing

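No member gene passed as higher under any alternative tried, and none passed as lower except with array weights, where 5 genes and 11 of the 25 probe sets passed and the median log2 fold change was -0.44. The weighted fit called 15.9% of all probe sets, against 1.6% without weights, and the cause was not tested. Leaving out single arrays gave 0 to 2 member probe sets lower and medians from -0.45 (without undifferentiated replicate 2) to -0.23. The median was -0.235 after a second quantile normalization and -0.335 with arrays centred on their medians, against -0.29 in the main fit. Whether the replicate numbers pair the samples is not given. The deviations of same-numbered arrays correlated at 0.21, -0.11 and 0.11, and those of arrays with unlike numbers at -0.31 to 0.32. With 3 arrays a group, such correlations cannot decide it. With the number as a block, 0 member genes and 0 member probe sets passed in either direction, the smallest adjusted p of a member was 0.127, and 388 probe sets in all were lower and 265 higher, against 462 and 258. Tyms at its dimmest probe set gave -0.017 after a second quantile normalization, 0 after median centring, -0.15 with array weights and -0.027 to 0.15 over single arrays left out. Mthfd1 gave 0.016 with array weights. Leaving out single arrays gave -0.20 to 0.016 for Psat1, -0.25 to 0.011 for Tyms at its second dimmest probe set, -0.23 to 0.16 for Shmt2 minus Shmt1 and -0.35 to 0.085 for Mthfd2 minus Mthfd1. Among the values of single probe sets under the alternatives, 300 kept their direction and side of the threshold, 13 passed it and 9 changed sign. Since no member probe set passed in the main fit, staying on the same side of the threshold was to be awaited, and the 300 do not measure stability. No probe set of any gene passed without differentiating replicate 2, and only 3 and 1 without differentiating and undifferentiated replicate 3. The counts without these arrays therefore say nothing about stability either. Across the member probe sets the median standard error was 0.17 on the log2 scale.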
